A study of Drosophila melanogaster with 12 samples.

Results

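The genes described here belong to the piRNA pathway and the germline of Drosophila melanogaster, and were chosen by name, with earlier results of these data known. The list held 10 symbols (vas, aub, piwi, AGO3, spn-E, armi, zuc, squ, mael and tud), of which 9 were found as symbols among the 13281 rows of the authors' deposited table. They filled 10 rows, because the symbol piwi stands in 2 rows with different FlyBase identifiers. The missing symbol, zuc, has a row under its older name CG12314 and is given apart, outside the counts of the 10 rows.

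piRNAs are small RNAs that guide PIWI proteins to transposon transcripts. In the fly ovary and testis they are cut from long precursors at the surface of mitochondria, amplified by reciprocal cleavage in nuage, a granule around the germline nucleus, and used in the nucleus to silence transposons. The pathway is known from germ cells and from somatic cells of the gonad, and most of its genes are described there rather than in the larval eye disc.

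Total RNA came from eye discs of larvae in their last instar, the epithelium that forms the adult eye, and was hybridised to Affymetrix expression arrays. A temperature of 25 degrees Celsius is given for every sample. All 4 genotypes carried the GMR-Gal4 driver, which acts only behind the morphogenetic furrow, so disc cells ahead of the furrow are in the sample without driven transgenes. The genotypes were GMR-Gal4/+ (the control), the driver over UAS-miR-11, the driver with the UAS-dE2F1 and UAS-dDP transgenes, each heterozygous, and the driver with all of UAS-miR-11, UAS-dE2F1 and UAS-dDP, with 3 biological replicates each. miR-11 is a microRNA whose gene lies in an intron of the dE2F1 gene, and dE2F1 with dDP forms a transcription factor of the cell cycle. How many animals went into a sample and their sex were not stated in the labels.

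Gene names are paired with values only in the authors' deposited table, a rank product analysis of each transgenic genotype against the control. It gives per gene the mean log2 fold change, p-values for higher and for lower expression, and the pfp, an estimate of the share of false positives among genes ranked as high or higher, which can exceed 1. A gene is written as called where its pfp is under 0.05 in the direction of its change. Because this table has no columns for single arrays, its values are printed without SD or n, and no expression level of any gene named here can be given. Whether a gene was detected above background in the disc, and the levels of eye disc or germline markers, were therefore not measured here.

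The arrays give the scale of replicate error. Over 18769 probe sets, which have no gene names in the sources used here, the standard error of a difference between 2 genotypes had a median of 0.17 and a 90th percentile of 0.45 on the log2 scale (limma, all 12 arrays). Arrays of the same genotype lay far apart on the first principal component, which held 63.1% of the variance. The control arrays ran from -9.33 to 49.8, those with miR-11 from -34.0 to 83.3, those with dE2F1/dDP from -49.9 to 34.4 and those with all 3 transgenes from -30.1 to 1.69. These ranges overlapped, the medians of both dE2F1/dDP genotypes (-44.7 and -19.9) lay below that of the control (-1.88), and the part of this spread in the values below was not tested.

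No gene of the list was called in any comparison in the authors' deposited table. The counts were 0 of 10 rows with miR-11, where 0.452% of all genes were called, 0 of 10 with dE2F1/dDP, where 0.346% were, and 0 of 10 with all 3 transgenes, where 0.851% were. At these background shares fewer than 1 of 10 rows would be called, so the zeros say little about the list. Across all genes, the smallest rise that was called was log2 1.41 with miR-11, 1.26 with dE2F1/dDP, and 1.17 in the genotype of all 3 transgenes in the authors' deposited table, and no member reached log2 1 in any of them.

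At an unadjusted two-sided p under 0.05 (the smaller of the table's p-values doubled), tud and spn-E were higher in both genotypes with dE2F1/dDP. This made 2 of 10 rows higher and 0 lower with dE2F1/dDP, where 3.43% of all genes were higher and 3.95% lower by the same rule in the authors' deposited table. With all 3 transgenes it also made 2 of 10 rows higher and 0 lower, against 4.43% and 4.47% of all genes in the authors' deposited table. With miR-11 alone the counts were 0 higher and 0 lower, against 2.36% and 1.87% in the authors' deposited table. Neither gene passed after adjustment over all genes, as given below.

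**Figure D1:**
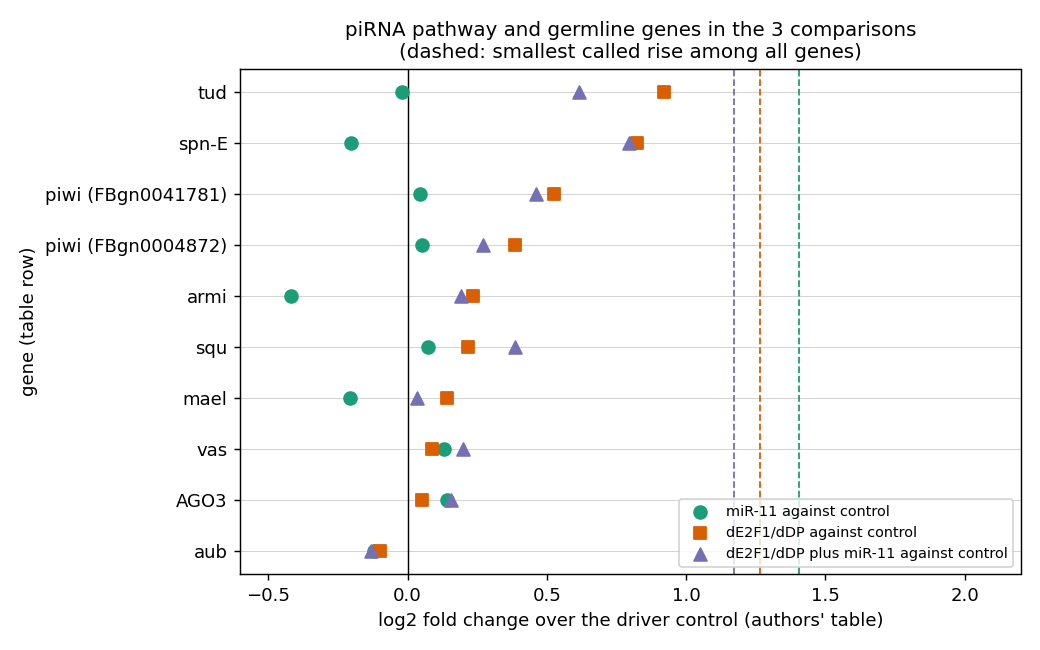
Each line is a row of the authors' deposited table for a piRNA pathway or germline gene, and the horizontal axis is its log2 fold change over the driver control; circles are miR-11, squares dE2F1/dDP and triangles all 3 transgenes. tud and spn-E lie furthest to the right in both genotypes with dE2F1/dDP, and every symbol lies left of the dashed lines, the smallest called rises at 1.41, 1.26 and 1.17.

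tud encodes a large protein of Tudor domains that binds Aubergine and is needed to build the germ plasm of the egg. It stood at log2 0.92 with dE2F1/dDP, a 1.89-fold difference (p for higher expression 0.0036, pfp = 0.380), and 1.42% of all genes lay at least as far from 0 in the authors' deposited table. With all 3 transgenes it was at log2 0.62, or 1.53-fold (p for higher 0.0217, pfp = 0.504), in the authors' deposited table. With miR-11 alone its log2 change was -0.02 in the authors' deposited table. There its p-values for higher and for lower expression were 0.111 and 0.174, both low for a mean near 0, in the authors' deposited table. The gene thus stood on the high side in both genotypes with dE2F1/dDP and near the control with miR-11, without passing the test over all genes.

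spn-E encodes an RNA helicase with a Tudor domain that works in nuage. It was at log2 0.82 with dE2F1/dDP, 1.77-fold the control (p for higher 0.0098, pfp = 0.488), in the authors' deposited table. With all 3 transgenes it was at log2 0.79, 1.73-fold (p for higher 0.0046, pfp = 0.327), the highest value of the list there in the authors' deposited table. With miR-11 alone its log2 change was -0.20 in the authors' deposited table. spn-E overlaps the gene Pbp45, which encodes a subunit of a small nuclear RNA activating complex, in the RefSeq annotation. Pbp45 was at log2 -0.38, -0.41 and -0.40 in the same order of genotypes (miR-11, dE2F1/dDP, all 3) in the authors' deposited table, so the overlapping genes had opposite signs in both dE2F1/dDP genotypes.

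The PIWI proteins are the Argonautes that carry piRNAs. piwi, whose protein silences transposons in the nucleus, was at log2 0.05, 0.39 and 0.27 with miR-11, dE2F1/dDP and all 3 transgenes in its row FBgn0004872 of the authors' deposited table. The other row under the symbol piwi, FBgn0041781, held log2 0.04, 0.53 and 0.46 in the authors' deposited table. The lowest pfp of either row was 0.711, and both rows rank the genotypes alike. piwi overlaps its neighbour SCAR in the RefSeq annotation, and no row is listed under the symbol SCAR. The identifier FBgn0041781 is not annotated in the reference used, so which gene this row reports was not determined here. It may be a gene other than piwi, and the counts and medians of the list are also given without this row.

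aub, whose protein cuts transposon transcripts in nuage, was at log2 -0.12, -0.10 and -0.13 in the authors' deposited table. Of the 10 rows it was the only one below 0 in all 3 comparisons, as was zuc, which is given apart. AGO3, its partner in the amplification cycle, was at log2 0.14, 0.05 and 0.16 in the authors' deposited table. Both genes changed by less than 0.17 in every comparison, which is the median standard error over probe sets without gene names. The standard errors of aub and AGO3 themselves are not known. aub and AGO3 were the members that differed least between genotypes. On the log2 scale these differences were at most 0.03 for aub and 0.10 for AGO3 in the authors' deposited table.

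Of the list's remaining nuage genes, vas, squ and mael, none was called. vas, the DEAD-box RNA helicase by which fly germ cells are recognised, was at log2 0.13, 0.09 and 0.20 in the authors' deposited table. Its introns hold the gene vig, at log2 -0.33, 0.32 and 0.05, and it overlaps solo, listed as CG33678, at log2 0.05, -0.03 and 0.04 in the authors' deposited table. squ, a nuage protein that binds Aubergine, was at log2 0.07, 0.22 and 0.39 (lowest pfp 0.699) in the authors' deposited table. squ lies within grp, the fly checkpoint kinase gene Chk1, which was at log2 0.11, 0.39 and 0.09 in the authors' deposited table. mael, which acts both in nuage and in silencing in the nucleus, was at log2 -0.21, 0.14 and 0.03 in the authors' deposited table. Which probes read the shared parts of overlapping genes was not tested.

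The genes of piRNA processing at mitochondria had their lowest values with miR-11. armi, an RNA helicase that feeds precursors into processing, was at log2 -0.42 with miR-11, the furthest from 0 of the list in that comparison, with 6.43% of all genes at least as far (p for lower expression 0.0922, pfp = 1.46) in the authors' deposited table. Its log2 change was 0.23 with dE2F1/dDP and 0.19 with all 3 transgenes in the authors' deposited table. zuc, the endonuclease that cuts piRNA precursors, was at log2 -0.36, -0.21 and -0.13 under its older name in the authors' deposited table, with a pfp for lower expression of at least 1.13. Neither gene passed in any comparison.

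As a group the members were centred on 0 with miR-11 and slightly above it with dE2F1/dDP. With miR-11, 5 of 10 rows were positive, where 5706 of all 13281 genes were. The median was log2 0.01, while the mean was -0.05, against a median of -0.03 over all genes of the authors' deposited table. With dE2F1/dDP, 9 of 10 rows were positive, aub being the exception, where 5698 of all genes were. The members' median there was log2 0.23 against -0.03 over all genes of the authors' deposited table. With all 3 transgenes 9 of 10 rows were again positive, with a median of log2 0.24 against -0.03 in the authors' deposited table. Without the row FBgn0041781 the counts were 4, 8 and 8 of 9 rows positive and the medians log2 -0.02, 0.22 and 0.20 for miR-11, dE2F1/dDP and all 3 transgenes in the authors' deposited table, so the sign of the median with miR-11 rests on that row. Both dE2F1/dDP comparisons share the control arrays, so their likeness is not a repeat of the result. The central 95% of all genes ran from -0.60 to 0.70 with dE2F1/dDP in the authors' deposited table, and only tud and spn-E lay outside it.

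Most eye disc markers were also positive in the dE2F1/dDP comparisons, and none was called. Of 15 markers, 13 were positive in the dE2F1/dDP comparison (median log2 0.47) and 14 in that of all 3 transgenes (median 0.30), against 8 of 15 with miR-11 (median 0.003), in the authors' deposited table. At an unadjusted p under 0.05, 0 were higher and 1 lower (sev) with miR-11, against 2.36% and 1.87% of all genes. With dE2F1/dDP 0 were higher and 2 lower (sev at log2 -0.69 and chp at -0.18), against 3.43% and 3.95%. With all 3 transgenes 1 was higher (gl) and 1 lower (sev at log2 -0.62), against 4.43% and 4.47%, in the authors' deposited table. The furthest from 0 were sev, a receptor of photoreceptor fate, at log2 -0.60 with miR-11 and -0.69 with dE2F1/dDP, and gl, a transcription factor of photoreceptors, at 0.74 with all 3 transgenes, in the authors' deposited table.

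The 12 genes listed for fat body, the tissue in which larval gonads lie, had a median of log2 0.93 with miR-11. Their medians were -0.38 with dE2F1/dDP and -0.30 with all 3 transgenes in the authors' deposited table. Whether each of them marks larval fat body was not tested. The yolk protein genes Yp1, Yp2 and Yp3, which count in these medians, were at log2 0.007, -0.14 and 0.14 with miR-11. The 12 genes did not move as one. With dE2F1/dDP 9 were negative and 3 positive, among them Lsp1alpha at log2 0.74 and Lsp1gamma at 0.68. With all 3 transgenes 11 were negative and 1, Lsp1alpha, was positive at log2 0.38. The storage protein gene Lsp1gamma (log2 1.87, pfp = 0.0111) and Obp99b, an odorant binding protein gene (log2 1.98, pfp = 0.0333), were called higher with miR-11 in the authors' deposited table. Obp44a, of the same family, was called lower in all 3 comparisons, at log2 -1.42, -1.68 and -1.47, and so ran against its list with miR-11 in the authors' deposited table. Of the 12 genes, 2 were called higher and 1 lower with miR-11, where 0.452% of all genes were called. In each dE2F1/dDP comparison 0 were called higher and 1 lower, against 0.346% and 0.851% called. Unadjusted, 8 were higher and 1 lower with miR-11, against 2.36% and 1.87%. With dE2F1/dDP 1 was higher and 6 lower, against 3.43% and 3.95%. With all 3 transgenes 1 was higher and 6 lower, against 4.43% and 4.47%. The part of either tissue in the members' values was not tested, and in bulk discs a change in the number of cells of a type cannot be told apart from a change in RNA per cell.

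**Figure D2:**
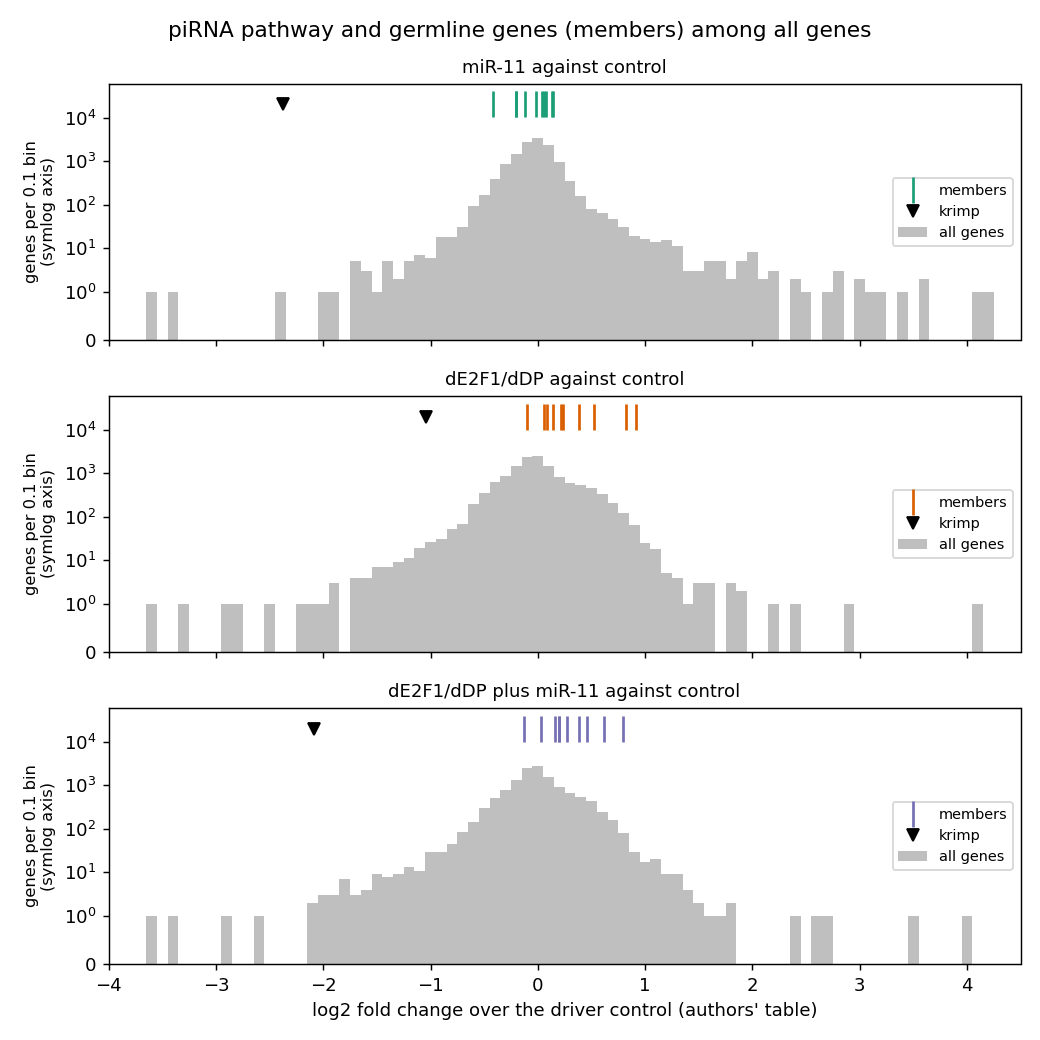
Grey bars count all 13281 genes of the authors' deposited table by log2 fold change over the driver control in each comparison, on a symmetric log axis. Coloured ticks mark the 10 rows of piRNA pathway and germline genes, which run from -0.42 to 0.14 with miR-11, -0.10 to 0.92 with dE2F1/dDP and -0.13 to 0.79 in the genotype of all 3 transgenes, and the black triangle marks krimp at log2 -2.38, -1.05 and -2.09.

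Differences between the transgenic genotypes, in which the control cancels, were formed from the table and carry no test. Between all 3 transgenes and miR-11 alone, spn-E differed by log2 0.997, tud by 0.64 and armi by 0.61. The rows under the symbol piwi differed by 0.22 (FBgn0004872) and 0.42 (FBgn0041781). All of these were higher with all 3 in the authors' deposited table. The central 95% of all genes ran from -0.68 to 0.78 for this difference in the authors' deposited table, so spn-E lay outside it. Between dE2F1/dDP alone and miR-11 alone, spn-E differed by log2 1.03 and tud by 0.94, both higher with dE2F1/dDP and both outside the central 95% of all genes, from -0.75 to 0.82, in the authors' deposited table. Between all 3 transgenes and dE2F1/dDP alone, every member lay between log2 -0.30 (tud) and 0.17 (squ), inside the range of -0.38 to 0.41 for the central 95% of all genes of the authors' deposited table.

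Another 41 genes of the pathway were taken from lists by role, and krimp was the only one of them called. This made 1 of 41 with miR-11 and 1 of 41 with all 3 transgenes, against 0.452% and 0.851% of all genes. With dE2F1/dDP the count was 0 of 41, against 0.346%. The lists were chosen with earlier results of these data known. krimp encodes a Tudor domain protein of nuage that joins Aubergine and AGO3. It fell to 0.193-fold the control with miR-11 (log2 -2.38) and to 0.235-fold with all 3 transgenes (log2 -2.09), with a pfp listed as 0 to 4 decimals in both, in the authors' deposited table. With dE2F1/dDP alone it was at log2 -1.05, 0.484-fold, and was not called (pfp = 0.098) in the authors' deposited table. It thus stood below the control in all 3 genotypes, and only 0.136%, 0.881% and 0.075% of all genes lay at least as far from 0 in the 3 comparisons of the authors' deposited table. Between all 3 transgenes and dE2F1/dDP alone it differed by log2 -1.04, outside the central 95% of all genes of the authors' deposited table. The sum of its changes with miR-11 alone and dE2F1/dDP alone lay log2 1.34 below its change with all 3 in the authors' deposited table, a difference that was not tested. No protein-coding gene overlaps krimp in the RefSeq annotation.

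The remaining nuage genes were not called. Counting krimp, 6 of 12 genes of this list were positive with miR-11 (median log2 0.002), 8 with dE2F1/dDP (median 0.28) and 8 with all 3 transgenes (median 0.10) in the authors' deposited table. tej, a Tudor domain protein that works with vas and spn-E and is listed as CG8589, was named after its values were seen. It was at log2 1.01 with dE2F1/dDP (2.01-fold, p for higher 0.001, pfp = 0.232) and 0.79 with all 3 transgenes (p for higher 0.002, pfp = 0.228), but at -0.003 with miR-11, in the authors' deposited table. Its profile thus ran like those of tud and spn-E, and it too missed the call. Such a profile was not particular to these genes. In the order miR-11, dE2F1/dDP and all 3, bel of the same list was at log2 0.07, 0.77 and 0.57. CG9684, also of this list, was at -0.14, 0.74 and 0.56, and the eye disc marker gl at 0.04, 0.63 and 0.74. bel and CG9684 were also named after their values were seen.

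Genes of primary processing moved little. The list of 9 had a median of log2 -0.17 with miR-11, 0.06 with dE2F1/dDP, and -0.02 in the genotype of all 3 transgenes in the authors' deposited table. Its largest values were those of shu, a cochaperone for loading PIWI proteins, at log2 -0.45 with miR-11 (pfp = 1.498), Hen1, the methyltransferase of piRNA ends, at 0.26 with dE2F1/dDP (pfp = 0.955), and papi, a mitochondrial Tudor protein, at 0.35 with all 3 transgenes (pfp = 0.870), in the authors' deposited table. Silencing and cluster transcription genes in the nucleus had 18 of 20 negative with miR-11 (median log2 -0.14) and 15 of 20 positive with dE2F1/dDP (median 0.14) in the authors' deposited table. With all 3 transgenes 14 of 20 were positive (median log2 0.12) in the authors' deposited table. Of all 13281 genes, 7474 were negative with miR-11, and the all-gene median was log2 -0.03 in each comparison. With dE2F1/dDP 5698 of all genes were positive, and with all 3 transgenes 5855. At an unadjusted p under 0.05, 0 of the 20 passed with miR-11 and 0 with dE2F1/dDP. With all 3 transgenes 1 was higher and 0 lower, against 4.43% and 4.47% of all genes. The largest were the chaperone gene Hsp83 at log2 -0.44 with miR-11, wde, a cofactor of the histone methyltransferase Eggless, at 0.66 with dE2F1/dDP (pfp = 0.643), and del, a subunit of the complex that marks piRNA clusters, at 0.75 with all 3 transgenes (pfp = 0.360), in the authors' deposited table.

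**Figure D3:**
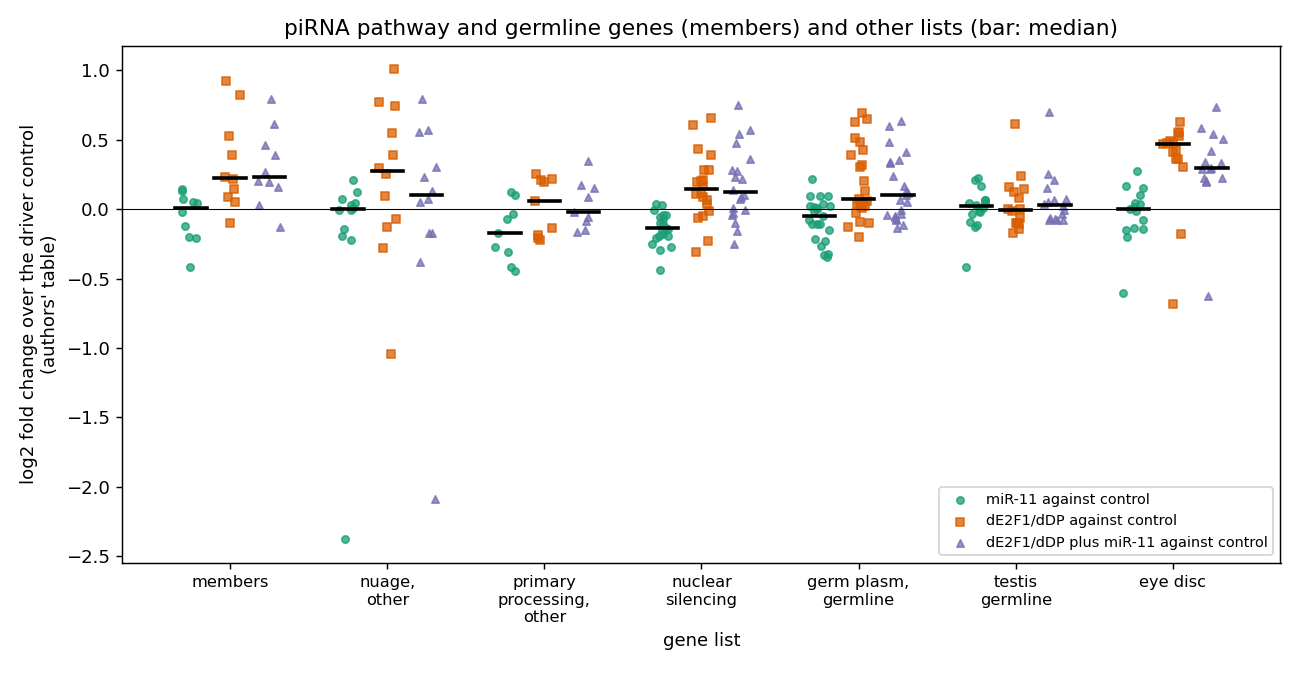
Each symbol is a gene's log2 fold change over the driver control in the authors' deposited table, grouped by list and coloured by comparison, with the black bar at the list's median. Members have medians of 0.01, 0.23 and 0.24, eye disc genes 0.003, 0.47 and 0.30, and testis germline genes 0.02, -0.01 and 0.03; krimp is the symbol far below the others among the nuage genes.

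Genes of germ plasm and germline fate gave 0 calls as well, where 0.452%, 0.346% and 0.851% of all genes were called. At such shares the zeros say little about this list. At an unadjusted p under 0.05, 0 of 23 rows passed with miR-11. With dE2F1/dDP 2 were higher (egl and stwl) and 0 lower, against 3.43% and 3.95% of all genes. With all 3 transgenes 1 was higher (csul) and 0 lower, against 4.43% and 4.47%. Over 23 rows the median was log2 -0.05 with miR-11, 0.08 with dE2F1/dDP, and 0.10 in the genotype of all 3 transgenes in the authors' deposited table. The largest values belonged to egl, which carries RNA along microtubules (log2 -0.34 with miR-11), stwl, a chromatin protein of germline stem cells (0.69 with dE2F1/dDP, pfp = 0.581), and csul, the arginine methyltransferase that modifies PIWI proteins for Tudor binding (0.64 with all 3 transgenes, pfp = 0.506), in the authors' deposited table.

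Testis germline genes, a mark of gonad in the dissection, had medians of log2 0.02, -0.01 and 0.03 over 16 genes in the 3 comparisons of the authors' deposited table, with 0 calls. The furthest from 0 were mia, a testis transcription factor subunit, at log2 -0.42 with miR-11, and the meiotic phosphatase gene twe at 0.61 with dE2F1/dDP and 0.70 with all 3 transgenes in the authors' deposited table. Among 4 genes of the gonad soma the furthest were zfh1, a transcription factor also found in muscle and blood cells, at log2 -0.22 with miR-11, 0.88 with dE2F1/dDP (pfp = 0.315) and 0.57 with all 3 transgenes in the authors' deposited table, and 0 were called. The zeros of both lists stand against 0.452%, 0.346% and 0.851% of all genes called, and so say little. At an unadjusted p under 0.05, 0 genes of either list passed with miR-11. In each dE2F1/dDP comparison 1 of 16 testis genes (twe) and 1 of 4 gonad soma genes (zfh1) were higher and 0 lower. Of all genes, 3.43% were higher with dE2F1/dDP and 4.43% with all 3 transgenes. Levels of these markers were not available to say whether any gonad tissue was present.

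The transgenes themselves serve as a partial check of the labels. Dp, the gene of dDP, was called at log2 2.85 with dE2F1/dDP and 2.73 with all 3 transgenes, and stood at -0.29 with miR-11 in the authors' deposited table. Dp does not tell the dE2F1/dDP genotypes from each other, or miR-11 alone from the control. No value of miR-11 itself is given here. For dE2F1, whose gene is listed as E2f, no comparison gave a call, with log2 0.04, 0.34 and 0.33 for miR-11, dE2F1/dDP and all 3 in the authors' deposited table. w, the eye colour gene that often marks such transgenes, was at log2 1.19, 2.35 and 2.58 in that order, and was called in both dE2F1/dDP genotypes of the authors' deposited table.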

How the data were processed

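Values come from 12 Affymetrix arrays, 4 genotypes with 3 biological replicates each. The deposited log2 expression values per probe set were made with the R package affy, per the submitters' processing notes, with no settings stated. The authors' deposited table holds average log2 fold changes, one-sided p-values and pfp, a score of false positives, per the file headers and a deposited note. Its p-values have 4 decimals. Settings, filters and choice of probe sets are not stated there.

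Members were found by symbol with Python 3.11.15. Older names and gene overlaps, but no coordinates, were taken from RefSeq (assembly Release 6). The rule for named genes was every member found, Dp, E2f and w, and of each other list the called genes or the gene furthest from 0 per comparison. The members and lists were chosen with earlier results of these data known. Table p-values were also doubled and adjusted by Benjamini-Hochberg over all 13281 genes. Probe sets were not tied to genes, so the planned test of members on the arrays was not made. limma 3.58.1 in R 4.3.3 (lmFit, eBayes, genotype only, all 12 arrays) was fitted to 18769 probe sets after 183 control probe sets were left out, and was tested on simulated data. The number of arrays limits the precision. Of the 18 pairs of arrays with the same replicate number, 6 had a correlation over 0.1 between their deviations from group means, and the arrays were treated as unpaired. Sequences of the members were not used here.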

Additional observations from a re-analysis of the deposited data

How the results depend on the processing

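Fold changes of named genes could not be recomputed without single arrays, since the table has no values per array. The count of 0 members called was unchanged in all 3 comparisons at a pfp under 0.01, a pfp under 0.1 and a Benjamini-Hochberg adjusted p under 0.05 over all genes, and became 2 with dE2F1/dDP and 2 with all 3 transgenes at an unadjusted p under 0.05, a rule chosen after seeing the data. Of the other 41 pathway genes, the count with dE2F1/dDP went from 0 to 1 (krimp) at a pfp under 0.1 and to 4 unadjusted. That with all 3 transgenes went from 1 to 3 unadjusted. By the unadjusted rule 3.43% of all genes were higher and 3.95% lower with dE2F1/dDP. With all 3 transgenes these shares were 4.43% and 4.47%. The median of the members stayed between log2 0.20 and 0.33 with dE2F1/dDP and all 3 transgenes when it was centred, replaced by the mean, taken with 1 row for piwi or with zuc added; with miR-11 it ran from -0.05 to 0.04. Centring on the median of all genes turned the sign of tud with miR-11 and of no other member value. On the arrays limma called 29, 12 and 17 probe sets with miR-11, dE2F1/dDP and all 3 transgenes. Fits on the arrays of the 2 groups alone gave 10 and 4 for the first and second comparison, and the replicate block gave 7 for dE2F1/dDP and changed no other count by over 1.5 times. Leaving out single arrays gave 14 (without control replicate 3) to 45 (without miR-11 replicate 1), 5 (without dE2F1/dDP replicate 1, or without control replicate 3) to 19 (when miR-11 replicate 3 was left out), and 9 (without replicate 3 of the control or of all 3 transgenes) to 18. The cause was not tested.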

Other observations

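Several rows under a single symbol were not rare. There were 181 symbols with more than 1 row in the authors' deposited table, and for 24 of them the rows lay over 0.5 apart on the log2 scale with dE2F1/dDP. AGO1, the Argonaute of the microRNA pathway, is a symbol with 2 rows. With dE2F1/dDP the row FBgn0026611 was at log2 0.86 and the row FBgn0050031 at -0.81 in the authors' deposited table. The symbol piwi, with rows at log2 0.53 and 0.39 in the authors' deposited table, is a member of this group. For AGO1 and piwi alike, which gene each row reports was not tested. AGO2, the Argonaute of small interfering RNAs, had 1 row, at log2 -0.18, 0.29 and 0.20 with miR-11, dE2F1/dDP and all 3 transgenes in the authors' deposited table.

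Stellate genes, which piRNAs silence in the fly testis, were looked up after the other values were seen. Ste12DOR, a Stellate copy, was at log2 -0.06, 0.34 and 0.49 in the same order of genotypes, with a lowest pfp of 0.424, in the authors' deposited table. Neither it nor Ssl, a related gene at log2 -0.15, -0.30 and -0.21, was called in the authors' deposited table.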
